A study of Mus musculus with 2 samples.

Results

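The genes described here are 33 genes of DNA replication and the S phase of the cell cycle, chosen by symbol out of 31053 genes in the feature lists of 2 single-cell libraries. All 33 were found, each at 1 gene ID. They encode 11 proteins of origin licensing and the replicative helicase, 10 polymerase, primase, clamp and clamp loader proteins, 4 enzymes of nucleotide supply, 5 proteins of chromatin and histone supply, and 3 proteins of fork protection, repair and Cdt1 destruction. The cells came from mammary glands of C57BL/6 mice and were sorted as CD24high CD29+. The name basal-like (myoepithelial) used below comes from cluster markers and not from this gate. One library carries the genotype label Fgd5-ko, with the letters cko in its title, and the other the label WT. Both titles also hold the tag P4. Its meaning, the Cre line, the cells in which Fgd5 was deleted, the deleted part, the age of the mice and how many animals gave each library were left unexplained in the sources used here.

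Before S phase, Cdc6 and Cdt1 load the Mcm2 to Mcm7 ring onto origins as an inactive helicase, and Cdc45 and the GINS complex later join it so that the ring unwinds DNA. Polymerase alpha with primase starts each strand, the Rfc complex loads the Pcna ring, and polymerases delta and epsilon extend the strands while Fen1 and Lig1 join Okazaki fragments. Many of these genes are transcribed around the G1 to S transition under E2F factors, so that a dividing cell is expected to hold transcripts of several of them, while Mki67 and Top2a are more abundant from S phase to mitosis.

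The Fgd5-ko-labelled library held 8798 barcodes with 136697801 UMIs (unique molecules counted), against 10735 barcodes and 60566053 UMIs for the WT-labelled library. A table of cells from the authors lists 6064 and 6588 of them, with a median of 15712 UMIs per cell in the Fgd5-ko-labelled library and 4954 in the WT-labelled library. Fgd5 went against its label, at 419 UMIs (4.05 CPM, UMIs of the gene per 1000000 UMIs of the cells) in basal-like cells of the Fgd5-ko-labelled library and 30 UMIs (0.840 CPM) in those of the WT-labelled library. Tags from the 3' end lying outside a deleted part would check nothing, so each direction below is that of a library and not of Fgd5 loss. Clusters named basal-like from their markers held 6029 listed cells (99.4%) in the Fgd5-ko-labelled library and 6360 (96.5%) in the WT-labelled library. Their defining markers were abundant, with Krt14 at 2275 CPM in the Fgd5-ko-labelled library and 2643 CPM in the WT-labelled library, and Trp63 at 89.6 and 101 CPM. The fibroblast gene Col1a1 was at 2.81 and 3.50 CPM in the same order. The libraries stood apart: only 3 of 15 basal-like clusters had at least 20 cells of each library, and these held 10.4% of the basal-like cells of the Fgd5-ko-labelled library and 3.35% of those of the WT-labelled library. They share 34 barcodes, of which 18 are listed. With 1 library per group no difference has a replicate check, and all intervals are exact 95% intervals for counting error only.

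The promoters of several members hold the letters of the E2F motif. RefSeq promoters on GRCm38.p6 matched 29 of the 33 members, and Mcm4, Gins2, Rfc2 and Pole were not matched. In the 250 bases before a start, 1 of the strings TTTGGCGC, TTTCGCGC, TTTCCCGC or TTTGCCGC on either strand occurred for 9 of 29 members (31.0%) and for 2.16% of 27025 genes with a promoter. It occurred in 1.86% of all 32851 promoters of that length. The 9 are Mcm5, Mcm6, Mcm7, Cdc6, Hells, Uhrf1, Dtl, Rfc3 and Pola1. Among other genes, 12 of 54 replication genes (22.2%) and 1 of 18 mitotic genes (5.56%) had such a string. The cell cycle homology letters TTTGAA or TTTAAA, on either strand, were found for 5 of 29 members (17.2%), 11 of 18 mitotic genes (61.1%) and 28.1% of all genes. CCAAT, on either strand, was found for 18 of 29 members (62.1%), 15 of 18 mitotic genes (83.3%) and 37.5% of all genes. None of the E2F strings holds either of these motifs. Shown with the matching bases in capitals, and read 5′ to 3′ on the gene's strand, are the upstream 250 bases of a pair of ring subunits (Mcm5 at chr8:75109259-75109508, plus strand, and Mcm6 at chr1:128359706-128359955, minus strand) and of Dtl (chr1:191575545-191575794, minus strand) and Hells (chr19:38930740-38930989, plus strand). Beside them stand the members that went, as described below for the Fgd5-ko-labelled library, the most and the least often with Mki67 and Top2a, Clspn (chr4:126556730-126556979, plus strand) and Slbp (chr5:33652575-33652824, minus strand), whose windows hold none of the 4 E2F strings.
Mcm5: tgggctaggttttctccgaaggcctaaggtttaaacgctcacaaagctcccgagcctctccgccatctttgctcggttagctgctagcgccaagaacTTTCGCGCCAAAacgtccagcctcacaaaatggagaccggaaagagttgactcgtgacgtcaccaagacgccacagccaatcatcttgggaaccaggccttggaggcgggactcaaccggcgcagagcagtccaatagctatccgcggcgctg
Mcm6: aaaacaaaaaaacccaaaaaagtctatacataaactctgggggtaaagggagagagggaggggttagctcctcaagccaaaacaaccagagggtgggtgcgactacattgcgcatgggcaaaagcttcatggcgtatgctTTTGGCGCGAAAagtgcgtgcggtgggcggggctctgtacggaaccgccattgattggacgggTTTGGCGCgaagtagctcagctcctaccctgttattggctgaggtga
Dtl: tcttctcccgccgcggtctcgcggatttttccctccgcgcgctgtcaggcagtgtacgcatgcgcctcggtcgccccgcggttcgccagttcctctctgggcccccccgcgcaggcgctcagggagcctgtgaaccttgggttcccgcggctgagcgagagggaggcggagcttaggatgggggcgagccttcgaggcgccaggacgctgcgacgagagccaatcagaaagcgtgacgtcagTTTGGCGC
Hells: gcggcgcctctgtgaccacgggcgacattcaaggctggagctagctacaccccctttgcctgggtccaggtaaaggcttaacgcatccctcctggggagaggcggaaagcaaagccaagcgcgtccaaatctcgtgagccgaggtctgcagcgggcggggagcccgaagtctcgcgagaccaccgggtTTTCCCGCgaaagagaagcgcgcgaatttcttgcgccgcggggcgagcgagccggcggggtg
Clspn: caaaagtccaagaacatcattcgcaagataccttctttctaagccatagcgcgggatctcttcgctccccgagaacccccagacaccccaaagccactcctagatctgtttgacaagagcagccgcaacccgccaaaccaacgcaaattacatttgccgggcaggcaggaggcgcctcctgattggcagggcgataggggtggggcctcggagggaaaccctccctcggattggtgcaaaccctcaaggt
Slbp: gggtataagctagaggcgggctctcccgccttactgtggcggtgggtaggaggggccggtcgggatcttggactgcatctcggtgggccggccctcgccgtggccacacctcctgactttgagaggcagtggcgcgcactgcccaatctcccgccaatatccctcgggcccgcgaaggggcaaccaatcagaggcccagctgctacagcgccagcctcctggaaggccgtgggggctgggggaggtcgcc
In Mcm5 the first match starts 153 bases before the start and overlaps a second on the other strand, and in Mcm6 an overlapping pair begins 110 bases before the start with a further match at 47 bases. In Dtl the match is the last 8 bases before the start. A match describes letters only, and its absence says nothing about E2F binding.

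As a sum, replication genes were higher in the Fgd5-ko-labelled library, by an amount that depended on which basal-like cells were set side by side. The 33 genes had 73435 UMIs, 709.8 CPM (704.6 to 714.9), in the Fgd5-ko-labelled library and 13757 UMIs, 385.4 CPM (379.0 to 391.9), in the WT-labelled library, a log2 ratio of 0.88 (0.85 to 0.91). All 33 passed the minimum of 20 UMIs over both libraries. Of them 28 were at least 1.5-fold higher in the Fgd5-ko-labelled library, against a background of 26.9% of 15060 genes, and 0 were at least 1.5-fold lower, against 10.5%. The median log2 ratio was 1.34 over the members and 0.23 over all genes tested. In basal-like cells that had 4000 to 12000 UMIs in both libraries, the sum was 401.5 CPM (391.3 to 411.9) in the Fgd5-ko-labelled library and 354.6 CPM (347.6 to 361.7) in the WT-labelled library, a log2 ratio of 0.18 (0.13 to 0.23). There, 6 members were higher and 1 was lower by 1.5-fold, against 23.7% and 10.8% of 13225 genes, and the median log2 ratio was 0.13 for members and 0.18 for all genes tested. The share of members called is near the background in these cells. The window takes mainly the shallow cells of the deeper library, and it bounds UMIs per cell without matching them. At 4000 to 6000 UMIs it holds 134 cells of the Fgd5-ko-labelled library and 2656 of the WT-labelled library. At 10000 to 12000 UMIs it holds 676 and 252. The place of a cell within its own library is not matched either. In cells within the interquartile range of UMIs of each library the log2 ratio of the sum was 0.56, with 27 members higher and 0 lower, against 27.2% and 9.75% of genes. With each cell thinned to 2000 UMIs it was 0.68, with 26 higher and 0 lower, against 24.5% and 8.93%.

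**Figure D1:**
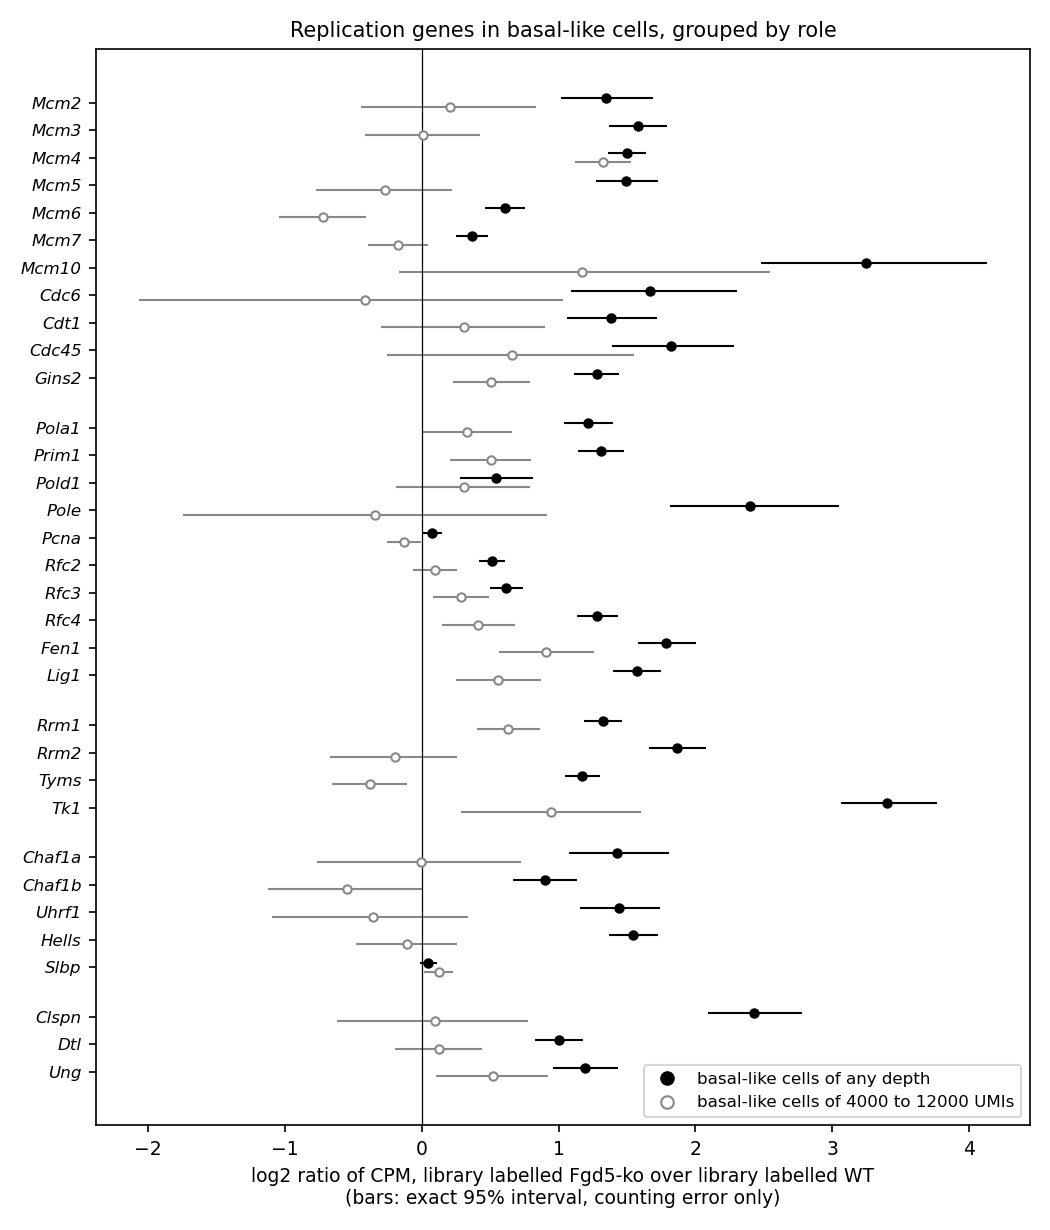
Log2 ratio of CPM (horizontal axis), Fgd5-ko-labelled over WT-labelled library, for each of the 33 genes grouped by role, in basal-like cells of any depth (filled) and of 4000 to 12000 UMIs (open), with exact 95% intervals for counting error. The filled points run between 0.05 and 3.40, and the open points between −0.72 and 1.32.

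The helicase and licensing genes summed to 164.5 CPM in the Fgd5-ko-labelled library and 76.4 CPM in the WT-labelled library, a log2 ratio of 1.11 (1.05 to 1.17), and 0.31 (0.20 to 0.41) in the window. Within the Mcm2 to Mcm7 ring, whose subunits form 1 complex, the ratios were uneven. Mcm4 (3878 and 474 UMIs, 37.5 and 13.3 CPM in the Fgd5-ko-labelled library and the WT-labelled library) had a log2 ratio of 1.5 (1.36 to 1.64), and in the window 31.0 and 12.4 CPM gave 1.32 (1.12 to 1.53). No other member had a larger ratio in the window. Mcm6 went the other way there, at 7.49 CPM in the Fgd5-ko-labelled library and 12.3 CPM in the WT-labelled library, a log2 ratio of −0.72 (−1.04 to −0.40), against 0.61 in cells of any depth. Mcm7 had 2879 and 771 UMIs (27.8 and 21.6 CPM), with a log2 ratio of 0.37 (0.25 to 0.48) at any depth and −0.17 (−0.39 to 0.04) in the window. Mcm2, Mcm3 and Mcm5 had ratios of 1.34, 1.58 and 1.5 at any depth, and their intervals in the window included 0. So did those of Cdc6 and Cdt1, which load the ring, and Cdc45, with ratios of 1.67, 1.38 and 1.82 at any depth. Mcm10, a helicase activation factor, was among the 4 highest members, with 385 UMIs (3.72 CPM) in the Fgd5-ko-labelled library and 14 UMIs (0.392 CPM) in the WT-labelled library, a log2 ratio of 3.25 (2.48 to 4.13). Gins2, a GINS subunit, was higher in both sets of cells, with ratios of 1.28 and 0.51.

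Polymerase, primase, clamp and clamp loader genes summed to 266.7 CPM in the Fgd5-ko-labelled library and 162.0 CPM in the WT-labelled library, a log2 ratio of 0.72 (0.68 to 0.76), and 0.17 (0.10 to 0.24) in the window. Pcna, the sliding clamp, was nearly level, with 6669 UMIs (64.5 CPM) in the Fgd5-ko-labelled library and 2180 UMIs (61.1 CPM) in the WT-labelled library, a log2 ratio of 0.08 (0.01 to 0.15). It turned lower in the Fgd5-ko-labelled library in the window, at −0.13 (−0.25 to −0.0024), and in cells within the interquartile range of UMIs, at −0.28 (−0.39 to −0.18), and was below 0 with TMM factors, at −0.093. Pcna also acts in DNA repair, and reads from its near-identical pseudogenes could be split or lost in the authors' counting. Whether either bears on its ratio was not tested. Of the clamp loader, Rfc2 had 4971 and 1201 UMIs (48.05 and 33.6 CPM) with a ratio of 0.51 (0.42 to 0.61), and Rfc3 had 3076 and 691 UMIs (29.7 and 19.4 CPM) with a ratio of 0.62 (0.50 to 0.74), in each case with the Fgd5-ko-labelled library first. Rfc4, from the same complex, had 1.28. Pole, the catalytic subunit of polymerase epsilon, had 382 UMIs (3.69 CPM) in the Fgd5-ko-labelled library and 25 UMIs (0.700 CPM) in the WT-labelled library, a ratio of 2.40 (1.81 to 3.04). In the window only 8 and 19 UMIs of it remained, a ratio of −0.34 (−1.74 to 0.92). Pold1, the catalytic subunit of polymerase delta, had 0.54. Pola1 and Prim1, which start strands, had 1.22 and 1.31, and 0.33 and 0.51 in the window. Fen1 and Lig1, which finish Okazaki fragments, had 1.79 and 1.57, and their window ratios of 0.91 (0.56 to 1.26) and 0.56 (0.25 to 0.87) also lay above 0.

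Nucleotide supply genes had the largest ratio of the 5 role groups, at 113.9 CPM in the Fgd5-ko-labelled library and 38.0 CPM in the WT-labelled library, a log2 ratio of 1.59 (1.5 to 1.67), against 0.19 (0.03 to 0.34) in the window. Tk1, the thymidine salvage kinase, had the highest ratio of all members, with 2205 UMIs (21.3 CPM) in the Fgd5-ko-labelled library and 72 UMIs (2.02 CPM) in the WT-labelled library, 3.40 (3.06 to 3.76). In the window it was at 2.89 and 1.5 CPM, a ratio of 0.94 (0.29 to 1.60). Rrm1, the large subunit of ribonucleotide reductase, had 3521 and 485 UMIs (34.0 and 13.6 CPM) and a ratio of 1.32 (1.19 to 1.46), with 0.63 (0.40 to 0.86) in the window. Rrm2, the small subunit, had 1.87 at any depth and −0.20 (−0.67 to 0.26) in the window. Tyms, thymidylate synthase, had 3825 UMIs (37.0 CPM) in the Fgd5-ko-labelled library and 586 UMIs (16.4 CPM) in the WT-labelled library, a ratio of 1.17 (1.04 to 1.30), and it was lower in the window, at −0.38 (−0.65 to −0.10).

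Chromatin and histone supply genes summed to 124.7 CPM in the Fgd5-ko-labelled library and 93.4 CPM in the WT-labelled library, a ratio of 0.42 (0.36 to 0.47), and 0.07 (−0.03 to 0.17) in the window. Slbp, which binds the stem loop of histone mRNA, made most of that sum and had the most UMIs of all members. It had 8046 UMIs (77.8 CPM) in the Fgd5-ko-labelled library and 2683 UMIs (75.2 CPM) in the WT-labelled library, a ratio of 0.05 (−0.01 to 0.11), the lowest of the 33. Its sign also depended on the cells, with 0.13 (0.02 to 0.23) in the window and −0.18 (−0.27 to −0.08) within the interquartile range of UMIs, and it was −0.12 with TMM factors. Hells, a chromatin remodeller, and Uhrf1, which brings Dnmt1 to newly made DNA, had 1.54 and 1.44. The chromatin assembly factor subunits Chaf1a and Chaf1b had 1.43 and 0.90. All of these but Slbp had window ratios below 0, with intervals that included 0. Among the remaining members, Clspn, an adaptor of the Chk1 checkpoint at forks, had 1200 UMIs (11.6 CPM) in the Fgd5-ko-labelled library and 77 UMIs (2.16 CPM) in the WT-labelled library, a ratio of 2.43 (2.09 to 2.78) that was 0.09 in the window. Dtl, which directs Cdt1 to destruction, and Ung, which removes uracil from DNA, had 1.0 and 1.19.

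With each cell thinned to 2000 UMIs, single members were found in few cells. A member was found in 0.365% to 13.4% of 6029 cells in the Fgd5-ko-labelled library and in 0.0953% to 14.3% of 6299 cells in the WT-labelled library, where 61 shallower cells were left out. Without thinning the ranges were 2.99% to 64.3% and 0.189% to 32.0%. At 2000 UMIs 31 of the 33 were found in a larger share of cells of the Fgd5-ko-labelled library. Slbp, in 13.4% and 14.3% of cells, and Pcna, in 10.4% and 10.97%, were the exceptions. The share over all genes was not computed for this count. Cells of the Fgd5-ko-labelled library also held more distinct genes of any kind at 2000 UMIs. The medians among cells with no member were 953 and 893 genes. Since a single member marks few cells, the number of distinct members in each cell was counted next.

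Cells with many distinct members existed in both libraries and were more frequent in the Fgd5-ko-labelled library at this depth. No member was found in 43.5% of cells in the Fgd5-ko-labelled library and 51.9% in the WT-labelled library. At least 3 were found in 648 of 6029 cells, 10.7% (9.98% to 11.6%), in the Fgd5-ko-labelled library and in 234 of 6299, 3.71% (3.26% to 4.21%), in the WT-labelled library. The product of the members' own shares would give 9.29% and 2.81%, so the counted shares were 1.16 and 1.32 times those of separate detection. A minimum of 6 members, added after the data were seen, was met by 185 cells, 3.07% (2.65% to 3.54%), and 28 cells, 0.445% (0.296% to 0.642%), where the product of shares gives 3.22 and 0.174 cells. Over 10 random draws of the thinning this share ran between 2.70% and 3.07% in the Fgd5-ko-labelled library and between 0.238% and 0.445% in the WT-labelled library, so the draw described here is the highest of both. The fullest cell held 14 members in the Fgd5-ko-labelled library and 9 in the WT-labelled library. Fibroblast-like barcodes outside the authors' table, with medians of 12472 and 6396 UMIs before thinning, reached 3 members in 1.85% and 0.672% and 6 members in 0 of 487 and 0 of 893, which allows shares of up to 0.616% and 0.336% when 3 counts are taken as the limit of a count of 0.

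**Figure D2:**
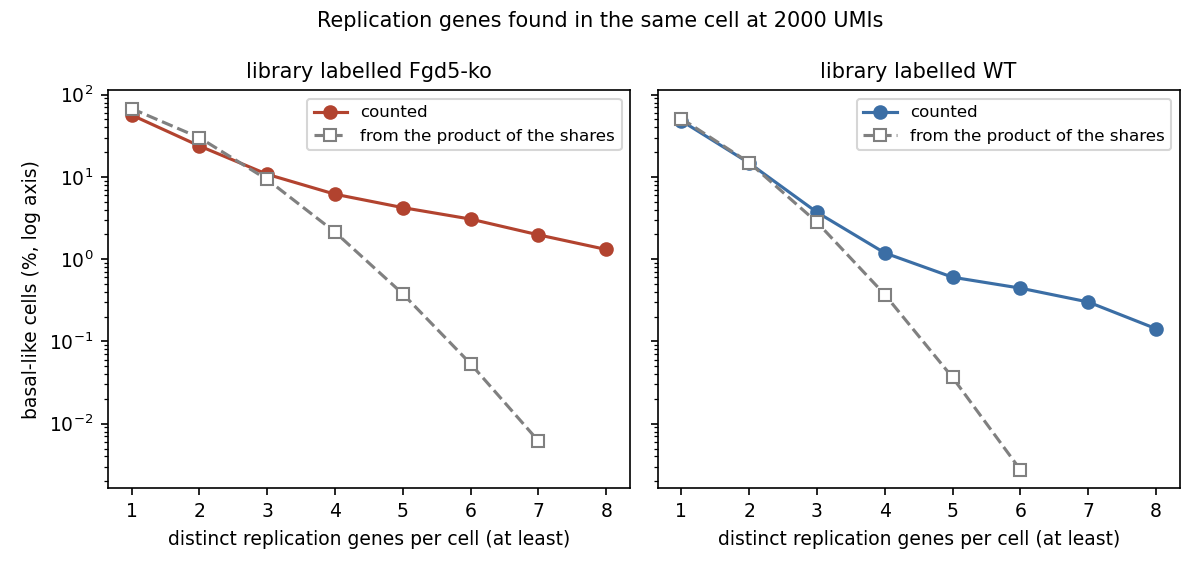
Share of basal-like cells (log axis) with at least 1 to 8 distinct replication genes after thinning to 2000 UMIs, as counted (filled) and as the product of the genes' own shares gives (open, drawn down to 0.001%). The lines lie together at 3 genes, 10.7% counted and 9.29% from the product in the Fgd5-ko-labelled library and 3.71% and 2.81% in the WT-labelled library, and part beyond.

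Members were found together more often than their separate shares give, across roles as much as within them. Of 528 pairs, 431 in the Fgd5-ko-labelled library and 221 in the WT-labelled library were expected in at least 1 cell, and 423 and 159 of these exceeded the product of the shares. The median ratio of counted to expected cells was 2.76 in the Fgd5-ko-labelled library and 1.41 in the WT-labelled library, over unlike sets of pairs. Pairs of the same role had medians of 2.48 and 1.41, and pairs across roles 2.80 and 1.40. Pairs of ring subunits, Mcm2 to Mcm7, had medians of 3.08 over 15 pairs and 2.42 over 10. Rrm2 and Tk1, named after the values were seen as the pair with the highest ratio among those expected in at least 3 cells, were in 33 cells together in the Fgd5-ko-labelled library against 4.11 expected, a ratio of 8.03. Slbp and Rfc2 were together in 58 cells of that library against 62.9 expected. Over all counted pairs the ratio was 2.28 in the Fgd5-ko-labelled library and 1.34 in the WT-labelled library, and in cells of 4000 to 12000 UMIs 1.11 and 1.29.

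Depth before thinning moved with these shares even at equal UMIs. Cells with at least 3 members had a median of 23244 UMIs in the Fgd5-ko-labelled library, against 14932 for cells with none, and 6595 in the WT-labelled library, against 5056. From the shallowest to the deepest quartile of its own cells, the share with at least 3 members was 4.98%, 4.31%, 9.30% and 24.4% in the Fgd5-ko-labelled library and 2.62%, 2.39%, 2.45% and 7.35% in the WT-labelled library. By quartiles, the Fgd5-ko-labelled library was higher in each. By UMIs of the cell the order was not the same. In cells of 4000 to 6000 UMIs the share was 10.4% (5.83% to 16.9%) in the Fgd5-ko-labelled library and 2.37% (1.83% to 3.02%) in the WT-labelled library, and at 12000 to 14000 UMIs it was 4.52% (3.17% to 6.23%) and 18.5% (12.6% to 25.8%). Over 4000 to 12000 UMIs it was 4.83% (3.83% to 6.01%) and 3.37% (2.86% to 3.94%), and for at least 6 members 0.382% and 0.337%. Library, depth and the share of dividing cells cannot be told apart in this design.

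**Figure D3:**
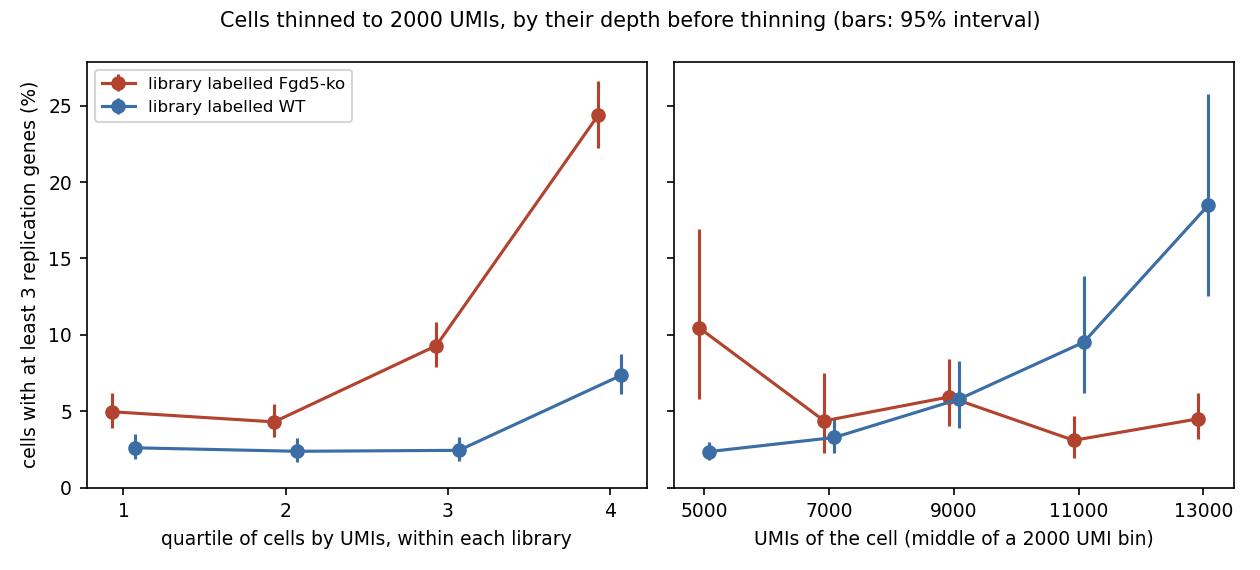
Share of basal-like cells with at least 3 replication genes at 2000 UMIs, by quartile of UMIs within each library (left) and by UMIs of the cell in bins of 2000 (right), with exact 95% intervals. By quartile the Fgd5-ko-labelled library is above throughout, up to 24.4% against 7.35%, whereas in the bin of 12000 to 14000 UMIs it is at 4.52% and the WT-labelled library at 18.5%.

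Mki67, the usual marker of dividing cells, and Top2a, the topoisomerase of S phase to mitosis, were found mostly in cells with a member: 17.7% of such cells in the Fgd5-ko-labelled library and 29.8% in the WT-labelled library had none. Of cells with at least 3 members, 39.2% (35.4% to 43.1%) in the Fgd5-ko-labelled library and 14.1% (9.91% to 19.2%) in the WT-labelled library held a UMI of Mki67 or Top2a, against 3.96% and 0.949% of cells with none. Seen from the other side, 43.1% of 589 cells with Mki67 or Top2a in the Fgd5-ko-labelled library and 31.7% of 104 in the WT-labelled library had at least 3 members. Replication-dependent histone genes, whose mRNA is made mainly in S phase, were taken as all symbols starting Hist1h, Hist2h, Hist3h or Hist4h. They had at least 2 UMIs in 44.3% and 21.8% of cells with at least 3 members, and in 15.2% and 6.06% of cells with none. Genes of this list were not checked singly for expression outside S phase. The summed basal markers were lower in cells with at least 3 members, at 14552 CPM against 17613 CPM in cells with none in the Fgd5-ko-labelled library and at 19483 against 24323 CPM in the WT-labelled library. The summed endothelial list was at 15.4 against 9.34 CPM and at 34.2 against 17.1 CPM, values that rest on few thinned UMIs. The fibroblast list was at 284.7 against 223.0 CPM and 237.2 against 197.4 CPM. Other lists were lower in cells with at least 3 members in both libraries. The luminal progenitor and alveolar list was at 1829 against 2616 CPM and 1791 against 2024 CPM. The hormone-sensing list was at 345.7 against 364.5 CPM and 465.8 against 617.5 CPM. The pericyte list was at 10.8 against 12.2 CPM and 4.27 against 8.41 CPM. Doublets were not removed, and their part in these counts was not tested.

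The members differed in how closely they went with Mki67 and Top2a. In the Fgd5-ko-labelled library, Clspn was found in 9.17% of cells with Mki67 or Top2a and 0.607% of cells without, a ratio of 15.1, and Pole, Tk1 and Rrm2 had ratios of 14.6, 12.9 and 11.5. Cdc45, Uhrf1 and Mcm10 followed with 8.72, 8.12 and 7.50. At the other end, Slbp was in 15.8% and 13.1% of these cells, a ratio of 1.20, and Mcm4, Ung and Pcna had 1.48, 1.5 and 1.79. The ratio was above 1 for all 33 members in the Fgd5-ko-labelled library and for 30 in the WT-labelled library. Hells, Ung and Cdc6 were found in none of the 104 cells with Mki67 or Top2a in the WT-labelled library. They were also found in only 1.0%, 0.678% and 0.129% of its other cells. A count of 0 among so few cells therefore does not place them below those shares. In the Fgd5-ko-labelled library they were in 10.9%, 2.38% and 1.36% of 589 cells with Mki67 or Top2a. Its highest ratios, 32.5 for Cdc45 and 29.8 for Uhrf1, rest on 6 and 10 cells. The share of a member's cells that also held Mki67 or Top2a had a median of 45.7% over nucleotide supply genes and 28.9% over licensing and helicase genes in the Fgd5-ko-labelled library, and 15.5% and 4.22% in the WT-labelled library. Cdc6, Mcm3 and Mcm5 often lay with other members in the Fgd5-ko-labelled library, at 10.9, 8.60 and 8.52 times the share of cells lacking 2 other members. Of their cells 36.4% (8 of 22), 30.3% and 33.3% held Mki67 or Top2a, near the median of 31.0% over all members. Other members with such ratios had larger shares, with 62.1% at a ratio of 12.5 for Clspn, 55.5% at 8.68 for Rrm2 and 58.3% at 8.49 for Tk1. The WT-labelled library had another order, with 23.5% of cells at a ratio of 9.82 for Mcm5 and 18.2% at 4.86 for Clspn.

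**Figure D4:**
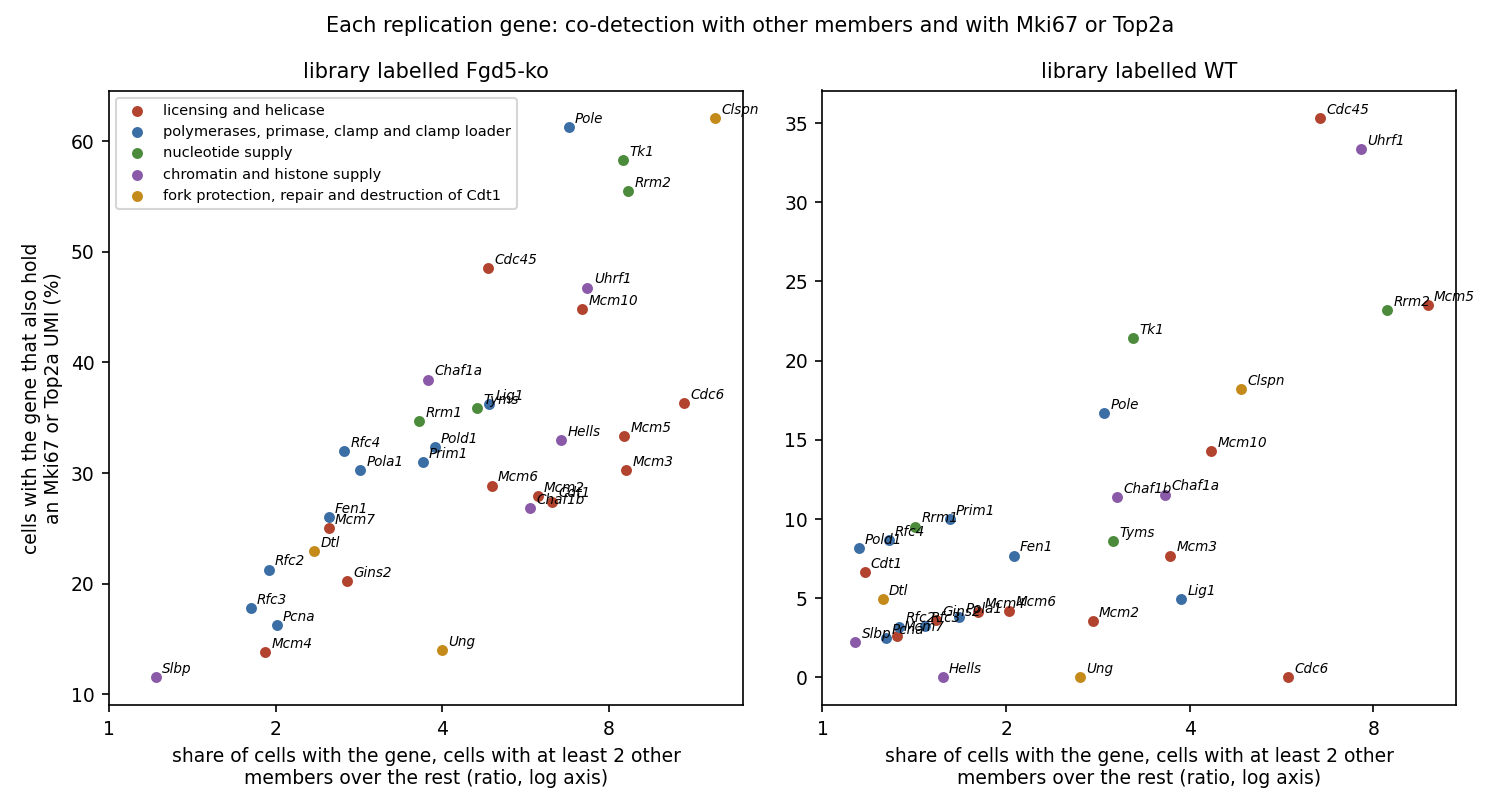
For each gene, the share of its cells that hold Mki67 or Top2a (vertical, percent, with a scale of its own in each panel) against how many times more often it is found in cells with at least 2 other members (horizontal, log axis), coloured by role, at 2000 UMIs. Clspn lies at the upper right (62.1%) and Slbp at the lower left (11.5%) in the Fgd5-ko-labelled library.

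Cells with several members lay in unlike clusters in the 2 libraries. In the Fgd5-ko-labelled library, 211 of the 648 cells with at least 3 members (32.6%) were in a cluster led by histone genes and 51 (7.87%) in a cluster led by mitotic genes. In the WT-labelled library, 1 of 234 (0.427%) and 44 (18.8%) were there. All other clusters held 59.6% and 80.8% of them. These shares also follow cluster size. In the histone cluster 81.8% of 258 and 4.35% of 23 cells had at least 3 members, and in the mitotic cluster 15.5% of 330 and 50.6% of 87. With at least 6 members, the histone and mitotic clusters held 56.8% and 1.62% of 185 cells in the Fgd5-ko-labelled library. In the WT-labelled library they held 0% and 53.6% of 28. Summed members reached 2811 CPM in 258 cells of the Fgd5-ko-labelled library in the histone cluster and 301 CPM in 23 cells of the WT-labelled library. In the mitotic cluster they were at 817 CPM in 330 cells and 1544 CPM in 87 cells. Since members took part in the clustering, these levels are a description. Leaving both clusters out, as an alternative added after seeing the data, gave a log2 ratio of 0.58 for the sum. There 26 members were at least 1.5-fold higher, and the share over all genes was not computed for these cells.

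Other lists of cell cycle genes were also mostly higher in the Fgd5-ko-labelled library at any depth. Of 73 further replication genes 53 were at least 1.5-fold higher and 1 lower in the Fgd5-ko-labelled library, with a median log2 ratio of 0.97, and in the window 16 were higher and 4 lower of 67 that passed, with a median of 0.31. Their 4 highest were Esco2 (3.22), a cohesin acetyltransferase, Timeless (2.78), a fork protection factor, Ccna2 (2.60), the cyclin of S phase and G2, and Asf1b (2.56), a histone chaperone. Their 4 lowest were Rrm2b (−0.93), the reductase subunit of non-dividing cells, Rpa3 (−0.29), a subunit of the single-strand binding complex, Donson (−0.27), a replisome factor, and Pole4 (−0.22), an accessory subunit of polymerase epsilon. All 20 mitotic genes were higher, with a median of 2.67, and 4 of 20 in the window, with a median of 0.18. Of 67 histone genes 60 passed the minimum, with 45 higher and 2 lower and a median of 2.25, and in the window 16 were higher and 14 lower of 39 that passed, with a median of 0.47. Over all genes tested, 26.9% were at least 1.5-fold higher and 10.5% lower at any depth, with a median of 0.23. In the window these values were 23.7%, 10.8% and 0.18. The shares of further replication genes and of mitotic genes called higher there are near this background. Of all other genes, the 10 whose level set cells with at least 3 members furthest above cells with none in both libraries were Pbk, Esco2, Hist1h3c, Hist1h2ap, Aurkb, Mxd3, Hist1h2ae, Ska1, Hist1h1b and Ncapg. Pbk, a mitotic kinase, had 66 UMIs (50.9 CPM) against 3 UMIs (0.572 CPM) in the Fgd5-ko-labelled library and 14 against 1 UMI in the WT-labelled library. The histone genes have near-identical copies, so reads may be split between them.

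Summed members were lower in stromal classes than in listed basal-like cells of the same library. Basal-like barcodes that the authors' table leaves out, with medians of 42328 and 18295 UMIs, were at 1094 CPM (1078 to 1111) in 338 barcodes of the Fgd5-ko-labelled library and 959.7 CPM (927.1 to 993.2) in 178 of the WT-labelled library, and 29.0% and 26.0% of them had at least 3 members at 2000 UMIs. Both are above their listed counterparts, and their intervals for that share, 24.2% to 34.1% and 19.7% to 33.1%, overlap between libraries. Luminal progenitor and alveolar-like listed cells were at 454.4 CPM (380.5 to 538.5) in 17 cells of the Fgd5-ko-labelled library and 446.2 CPM (396.6 to 500.4) in 118 cells of the WT-labelled library. Hormone-sensing luminal-like cells were at 233.5 CPM in 5 cells and 393.5 CPM in 53 cells. Luminal barcodes outside the table were also above the listed ones, at 592.8 CPM in 6 and 1215 CPM in 28 luminal progenitor and alveolar-like barcodes, and at 325.4 CPM in 5 and 1063 CPM in 60 hormone-sensing ones, of which 10.0% in the WT-labelled library had at least 6 members. The 8 B cell-like barcodes of the Fgd5-ko-labelled library were at 1787 CPM, and the 27 of the WT-labelled library at 611.6 CPM. Endothelial-like barcodes were at 304.6 and 275.3 CPM, fibroblast-like at 240.9 and 207.1 CPM, and pericyte and vascular smooth muscle-like at 304.8 and 285.0 CPM, with the Fgd5-ko-labelled library first. At 2000 UMIs no barcode of these stromal classes reached 6 members. Tk1 was at 0.493 and 0.338 CPM in fibroblast-like barcodes, against 21.3 and 2.02 CPM in listed basal-like cells. The fibroblast-like values of Tk1 rest on no more than 3 UMIs in each library. Slbp was at 44.5 and 49.8 CPM in fibroblast-like barcodes, against 77.8 and 75.2 CPM. Clusters make up these classes in unlike shares of each library, which limits comparison within them.

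**Figure D5:**
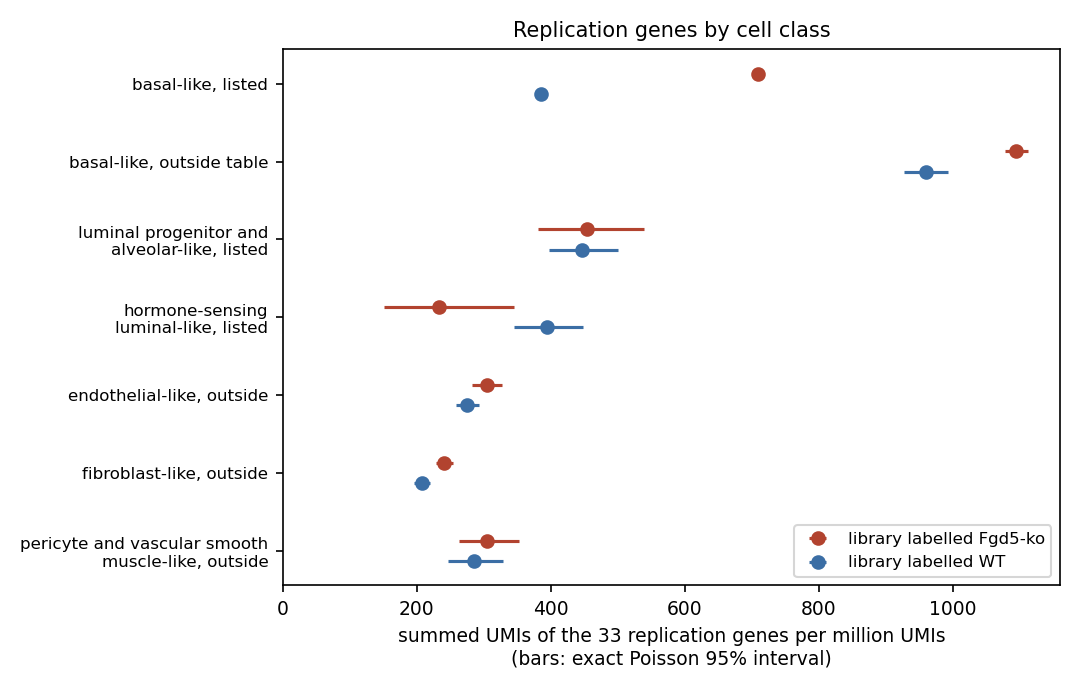
Summed CPM of the 33 genes (horizontal axis, with exact Poisson 95% intervals) in classes of listed cells and of barcodes outside the authors' table, in the Fgd5-ko-labelled library and the WT-labelled library. Listed basal-like cells are at 709.8 and 385.4 CPM, basal-like barcodes outside the table at 1094 and 959.7 CPM, and fibroblast-like barcodes at 240.9 and 207.1 CPM.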

How the data were processed

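Single cells of 2 libraries were measured with the 10x Genomics 3' kit (V3 chemistry), per the labels' protocols. The authors deposited raw UMI counts per gene and barcode, not normalized, made with Cell Ranger 3.1.0 per the file headers, and a table of cell barcodes. The submitters' processing notes name Seurat 3.0 and the mm9 build, with no step attached to either. Barcodes in the authors' table end in 1 of 2 suffixes. The 6064 with suffix 2 were all present in the Fgd5-ko-labelled library (27 of them in the WT-labelled one), and the 6588 with suffix 1 in the WT-labelled library (21 in the Fgd5-ko-labelled one), which ties suffixes to libraries. Its 2 t-SNE columns were not used.

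Barcodes outside the table were kept from 1000 UMIs, 500 genes and at most 15% mitochondrial UMIs. Both sets were scaled to 10000 UMIs per cell and clustered apart (scanpy 1.11.5, leidenalg 0.10.2, 2000 variable genes, 30 components, 15 neighbours, resolution 1, no batch correction). Clusters were named from 12 marker lists with a log2 margin of 1 and at least 3 markers in 10% of cells, a rule set after the data were seen. No doublet caller was run. UMIs were summed per class and library; CPM are exact sums divided by the class total, with Poisson, Clopper-Pearson or conditional 95% intervals, covering counting error alone. For a count of 0 the upper limit is 3 counts. Cells were thinned to 2000 UMIs with a fixed seed. No test was run, and called means at least 1.5-fold.

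Named in full are the 8 members with the most UMIs and the 4 highest and 4 lowest ratios, then the 4 highest and 4 lowest further replication genes with at least 200 UMIs, and the 10 partner genes with at least 50 thinned UMIs in cells with at least 3 members. Members and gene lists were chosen with earlier results of these data known. The ratio and thinning steps were tested on simulated data. Promoters are RefSeq's. Alternatives used edgeR 4.0.16 (TMM factors) in R 4.3.3, median-ratio factors, other cells, depths, minimums and 10 random draws. Further software was NumPy 2.4.6, pandas 2.3.3, SciPy 1.17.1 and matplotlib 3.10.9 under Python 3.11.15.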

Additional observations from a re-analysis of the deposited data

How the results depend on the processing

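The log2 ratio of the summed members, 0.88, was 0.71 with TMM factors, 0.69 with median-ratio factors, 0.18 in cells of 4000 to 12000 UMIs, 0.56 within the interquartile range of UMIs, 0.32 in cells with no Mki67 or Top2a UMI, 0.68 with thinned cells, and, as alternatives chosen after seeing the data, 0.80 with basal-like barcodes outside the table and 0.58 without the mitotic and histone clusters. It stayed above 0 in each. The cells with no Mki67 or Top2a UMI were picked without thinning, so that filter depends on depth. Without thinning, Mki67 was found in 16.3% of basal-like cells of the Fgd5-ko-labelled library and 2.03% of those of the WT-labelled library. The count of members at least 1.5-fold higher, 28, was 6 in the 4000 to 12000 UMI cells and 18 with no Mki67 or Top2a UMI, and 26 to 28 otherwise. Over all genes tested, the share higher was 26.9% at any depth and 23.7% in the 4000 to 12000 UMI cells. It was 27.2% within the interquartile range of UMIs and 24.5% with thinned cells, and was not computed for the other settings. Ratios that turned below 0 in the 4000 to 12000 UMI cells were Mcm5 −0.26, Mcm6 −0.72, Mcm7 −0.17, Pcna −0.13, Rrm2 −0.20, Tyms −0.38, Cdc6 −0.41, Hells −0.11, Uhrf1 −0.35, Chaf1a −0.0019, Chaf1b −0.54 and Pole −0.34, and with no Mki67 or Top2a UMI Mcm6 −0.011, Mcm7 −0.13, Pcna −0.24, Cdc6 −0.012 and Slbp −0.041. Pcna and Slbp were also below 0 with TMM factors (−0.093 and −0.12), median-ratio factors (−0.11 and −0.14), the interquartile range of UMIs (−0.28 and −0.18), thinned cells (−0.090 and −0.089) and without the mitotic and histone clusters (−0.076 and −0.014). Their cause was not tested.

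The share of basal-like cells with at least 3 members, 10.7% in the Fgd5-ko-labelled library and 3.71% in the WT-labelled library, was 7.93% and 1.67% at 1500 UMIs, 25.8% and 13.5% at 4000 UMIs (which leaves out 17 and 1694 cells), 80.7% and 22.6% not thinned, 9.48% and 3.09% without the 5% of cells with the most UMIs, 4.83% and 3.37% at 4000 to 12000 UMIs, and 11.7% and 4.32% with barcodes outside the table. With a minimum of 2, 4 or 6 members it was 23.8%, 6.15% and 3.07% in the Fgd5-ko-labelled library and 14.7%, 1.19% and 0.445% in the WT-labelled library. Over 10 draws it was 10.6% to 11.6% and 3.14% to 3.71%, and for 6 members 2.70% to 3.07% and 0.238% to 0.445%. In the Fgd5-ko-labelled library the pair ratio was 2.02 at 4000 UMIs and 1.11 at 4000 to 12000 UMIs, and in the WT-labelled library 1.20 at 1500 and 1.45 at 4000 UMIs. The share of these cells with Mki67 or Top2a was 44.0% and 43.1% in single draws, 31.7% at 4000 UMIs and 14.5% at 4000 to 12000 UMIs in the Fgd5-ko-labelled library, and 21.7% at 1500 and 9.87% at 4000 UMIs in the WT-labelled library.

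Fibroblast-like barcodes with at least 3 members were 0.407% and 0.220% at 1500 UMIs and 6.87% and 3.50% at 4000 UMIs, and 0.411% and 0.821% in 2 draws of the Fgd5-ko-labelled library. Endothelial-like ones were 9.77% and 9.65% at 4000 UMIs, and 0% and 3.35% in 1 draw. Restricting classes to the authors' table gives no separate value. Depth limits rare members: basal-like cells of the WT-labelled library held 27 UMIs of Cdc6 and 14 of Mcm10. No paired analysis was possible because each group has 1 library and the labels give no shared replicate numbers.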
